A study of Sus scrofa with 9 samples.

Results

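The matrix metalloproteinases (MMP), the ADAMTS proteases, the ADAMTS-like proteins (ADAMTSL) and the tissue inhibitors of metalloproteinases (TIMP) were followed in pig muscle precursor cells that expressed human DUX4, pig DUXC or GFP. All genes of the count table whose symbol is one of these 4 names followed by a number, with or without a last letter, were taken, which gave 48 of 27339 genes: 20 MMP, 19 ADAMTS, 5 ADAMTSL and 4 TIMP genes. The choice used no measured value. Of the 48, 41 had enough reads to be tested and 7 did not (ADAMTS18, ADAMTS19, ADAMTSL2, MMP7, MMP17, MMP20 and MMP27).

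Messenger RNA was sequenced from primary Gottingen pig myoblasts at passages 7 to 9, with 3 libraries for each of 3 transgenes: human DUX4, pig DUXC and GFP, the control. Each transgene was inducible by doxycycline, and all groups, the control included, were kept in 1 µg/mL doxycycline for 16 h before harvest. DUX4 normally acts in the early embryo, and its misexpression in skeletal muscle causes facioscapulohumeral muscular dystrophy. DUXC is a related factor of the pig with the same pair of homeodomains, and the design compares what both do in pig cells. Doxycycline is itself known to inhibit metalloproteinase activity, and every group received it.

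MMPs are zinc-dependent proteases that cut collagens, elastin and other matrix proteins. Most are secreted as inactive proenzymes and a few are anchored in the cell membrane. ADAMTS proteases are related secreted enzymes with thrombospondin repeats that cut proteoglycans such as versican and aggrecan, trim procollagens or act on microfibrils, whereas ADAMTS-like proteins have the repeats but no protease domain. TIMPs bind the active site of MMPs and of some ADAMTS proteases. In muscle, this system remodels the matrix around fibres and precursor cells during growth and repair.

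Total counts ranged from 36580573 to 44420895 per library. Expression levels are in CPM (read counts scaled to one common library size), in the order of libraries 1, 2 and 3 of a group or as mean ± SD (n = 3 libraries), and fold changes as fitted log2 values ± SE. A change was called at an adjusted p under 0.05 in the quasi-likelihood test of edgeR with Benjamini-Hochberg adjustment over the 15956 genes tested. Whether replicate libraries stem from independent cultures is not stated in the labels, so p-values reflect spread between libraries that may be technical only. The cells are labelled myoblasts, but in the GFP libraries the transcription factors that define muscle precursors were scarce, with PAX7 at 0.402 CPM, MYF5 at 0.705 CPM and 1 count of MYOD1 over 3 libraries. Of the other markers on that list, DES, the muscle intermediate filament, was at 7.15 CPM and ITGA7, a laminin receptor of muscle, at 5.77 CPM. MYOG and CDH15 had 6 and 21 counts over 3 libraries. The 8 fibroblast markers summed to 49880.4 to 53007 CPM.

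Against GFP, both factors moved most of these genes, in both directions. DUX4 raised 17 of the 41 tested members and lowered 17, and 7 did not pass. DUXC raised 17 and lowered 20, and 4 did not pass. So 82.9% of the 41 passed with DUX4 and 90.2% with DUXC, where 64.8% and 82.5% of all tested genes did. By direction, DUX4 raised 32.9% and lowered 31.9% of all tested genes, and DUXC raised 40.2% and lowered 42.3%. The 34 members that did not overlap between the DUX4 and GFP libraries, and the 36 that did not between DUXC and GFP, compare with 67.0% and 83.5% of all tested genes. The median log2 fold change of the 41 members was -0.14 with DUX4 and -0.20 with DUXC, beside 0.00 and -0.03 over all tested genes.

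Fewer members changed at least 2-fold. With DUX4, 10 members rose and 6 fell at least 2-fold (39.0% of 41), where 10.5% of all tested genes rose and 5.26% fell by that much, 15.7% together. With DUXC, 13 rose and 10 fell at least 2-fold (56.1%), against 21.3% and 7.97% of all tested genes, 29.3% together. Of the 41, 7 were under the filter level of 0.250 CPM in at least 1 GFP library (ADAMTS12, ADAMTS14, MMP3, MMP8, MMP9, MMP12 and MMP13). They entered the test through the libraries of a factor in which they were high, so their difference is no evidence about the families. Among the other 34, DUX4 raised 13 and lowered 17, where it raised 32.1% and lowered 36.9% of all genes at that level in every GFP library, and DUXC raised 10 and lowered 20, where the shares of all such genes were 33.5% and 49.1%. In bulk RNA, fewer cells that express a gene and less RNA per cell cannot be told apart.

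The directions under both factors are set side by side here. Both comparisons use the same 3 GFP libraries, so they are not independent. An error in these libraries shifts both fold changes the same way. Both raised 10 members (16.8% of all tested genes were raised by both): ADAMTS1, ADAMTS3, ADAMTS4, ADAMTS14, ADAMTSL1, MMP1, MMP3, MMP12, MMP13 and MMP19. Of these, ADAMTS14, MMP3, MMP12 and MMP13 entered the test through libraries in which they were high. The count of 10 is thus no evidence about the families. Both factors lowered 12 (19.5% of all tested genes): ADAMTS2, ADAMTS5, ADAMTS10, ADAMTS15, ADAMTS16, ADAMTSL3, ADAMTSL5, MMP2, MMP15, MMP28, TIMP2 and TIMP3. DUX4 raised and DUXC lowered 5 members (11.4% of all tested genes), namely ADAMTS17, ADAMTS20, ADAMTSL4, MMP14 and MMP23B. The reverse held for 4 members (7.87%), namely ADAMTS7, ADAMTS8, ADAMTS9 and MMP16. Compared directly, without the GFP libraries, 19 members were higher with DUX4 and 17 higher with DUXC, and 5 did not pass. All 9 members with opposite directions differed, as did all 1819 and 1256 tested genes with these directions. Opposite calls make such a difference nearly certain, so nothing is read from it. Over all tested genes, 40.8% were higher with DUX4 and 41.6% with DUXC in this comparison, 82.4% together. At least 2-fold, 9 members were higher with DUX4 and 10 with DUXC (46.3% of 41), where 9.83% and 20.7% of all tested genes were, 30.6% together. Of the 10, ADAMTS12, MMP8, MMP9, MMP12 and MMP13 entered the test through libraries in which they were high. Their difference is thus no evidence about the families. The libraries of both factors did not overlap for 36 members, and for 83.0% of all tested genes.

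**Figure D1:**
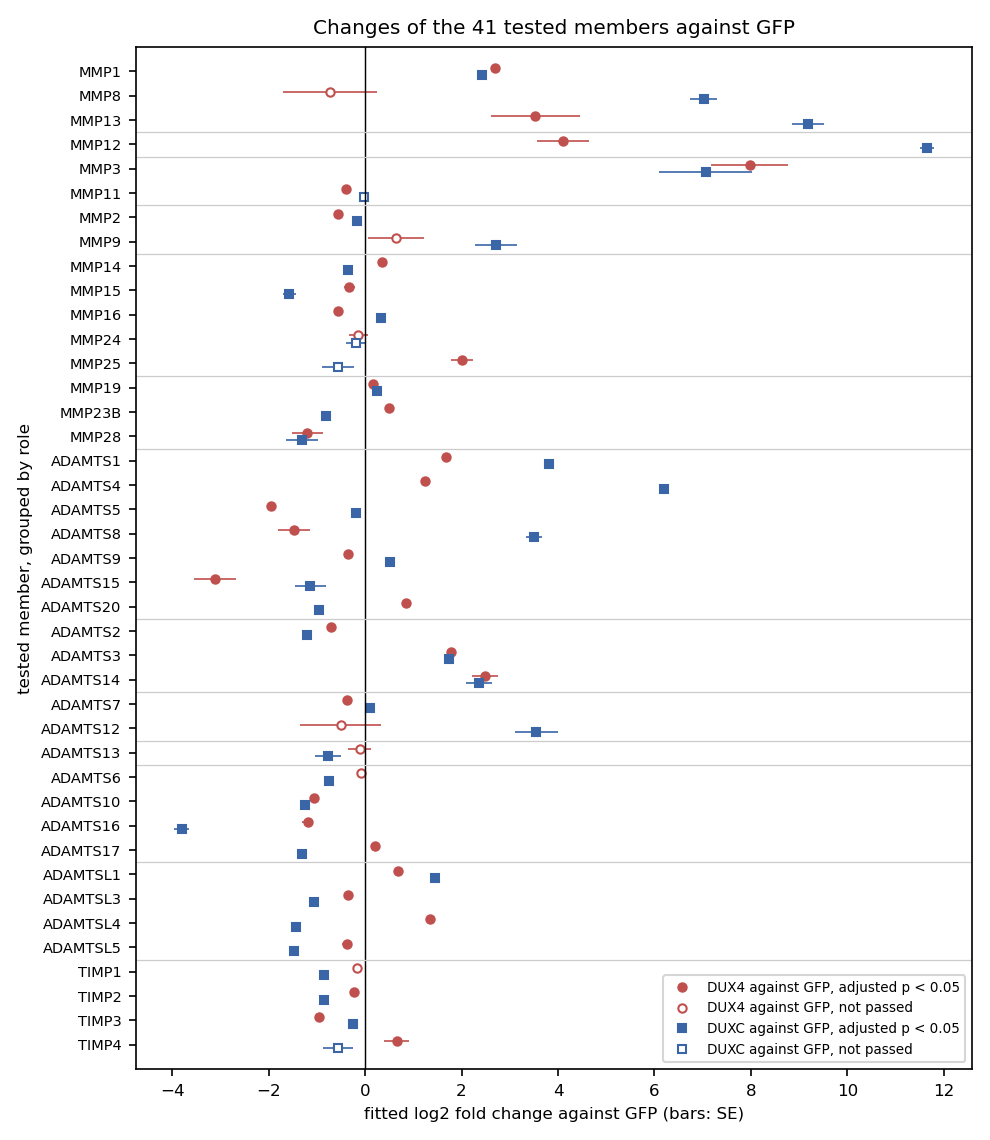
Fitted log2 fold change against GFP (x axis, bars are SE) of the 41 tested members, grouped by role (y axis), with DUX4 as red circles and DUXC as blue squares, filled where the adjusted p was under 0.05. MMP12 with DUXC lies farthest to the right at 11.65 and ADAMTS16 with DUXC farthest to the left at -3.80, and the values of MMP3 rest on no GFP count.

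The interstitial collagenases, which cut fibrillar collagen, were all 3 raised by DUXC, and 2 of 3 were raised by DUX4. MMP8 and MMP13 passed the filter only through the DUXC libraries, so that their rise with DUXC was a condition of their being tested. MMP1, the collagenase of fibroblasts (chromosome 9, 33411738 to 33420205 in Sscrofa11.1), was the one already present in the controls, at 8.17, 7.06 and 6.65 CPM. It stood at 48.8, 47.0 and 45.0 CPM with DUX4 and 38.1, 41.5 and 38.3 CPM with DUXC. No library of either factor overlapped the controls, and the log2 fold changes were 2.68 ± 0.061 (adjusted p = 1.08e-36) and 2.43 ± 0.062 (adjusted p = 4.74e-35). MMP1 was slightly higher with DUX4 than with DUXC, by 0.26 ± 0.048 on the log2 scale (adjusted p = 4.31e-06), with no overlap.

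MMP8, the collagenase stored in neutrophil granules (chromosome 9, 33384034 to 33397637), was near 0 in 6 of 9 libraries. The GFP libraries had 0.0245, 0.0257 and 0.0770 CPM (5 counts in all), the DUX4 libraries 0.0492, 0 and 0.0256 CPM (3 counts) and the DUXC libraries 5.45, 6.34 and 5.81 CPM. DUXC raised it with a log2 fold change of 7.02 ± 0.28 (adjusted p = 1.53e-27), and without GFP library 3, which held 3 of the 5 control counts, the value was 7.70. DUX4 gave -0.72 ± 0.97 (adjusted p = 0.533), which did not pass, and the DUXC libraries exceeded the DUX4 libraries by a ratio of 241 (95% interval 82.3 to 1173). Between the factors the log2 difference was -7.74, and -8.58 without DUX4 library 1 or -7.16 without DUX4 library 2.

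MMP13, the collagenase of cartilage and bone (chromosome 9, 33549003 to 33616700), had 1 count in the 3 GFP libraries. With DUX4 its level was 0.123, 0.161 and 0.103 CPM, a ratio of 15.4 (95% interval 2.40 to 647), and with DUXC 5.99, 6.83 and 7.42 CPM, a ratio of 802 (95% interval 144 to 31712). All 6 libraries of the factors were above all controls (adjusted p = 0.000855 with DUX4 and 3.52e-29 with DUXC). Between the factors the log2 difference was -5.67 ± 0.22 (adjusted p = 3.52e-28). MMP13 overlaps the noncoding gene LOC110255426, so reads of one can be counted for the other. The ratios rest on 1 count of GFP library 1. Without that library the controls had none, and the fitted log2 values, then no measure of size, were 5.41 with DUX4 and 11.07 with DUXC.

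MMP12, the metalloelastase known from macrophages, which cuts elastin (chromosome 9, 33473625 to 33483630), had the largest fitted fold change of the 41 tested members with DUXC. Its GFP libraries had 0.0245, 0.103 and 0 CPM (5 counts in all). The DUX4 libraries had 1.16, 0.688 and 0.462 CPM and the DUXC libraries 140.0, 148 and 147 CPM (145 ± 4.34). The groups stood in 3 separate steps: controls at the level of single reads, all DUX4 libraries above them and all DUXC libraries far above both. The log2 fold change was 4.10 ± 0.54 with DUX4 (adjusted p = 8.53e-07) and 11.65 ± 0.15 with DUXC (adjusted p = 3.69e-25), and DUXC exceeded DUX4 by 187-fold (log2 -7.55 ± 0.099, adjusted p = 5.79e-25). Since 4 of the 5 control counts came from GFP library 2, the values without it were 5.63 and 13.17, and without GFP library 3 they were 3.56 and 11.098.

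The stromelysins MMP3 and MMP11 did not move together. MMP3, which cuts many matrix proteins and activates other MMPs (chromosome 9, 33446969 to 33453995), had 0 counts in the GFP libraries, 1.03, 0.665 and 0.641 CPM with DUX4 and 0.491, 0.318 and 0.433 CPM with DUXC. Against the floor of 3 counts over the group it was at least 30.8-fold higher with DUX4 (adjusted p = 5.71e-12) and at least 16.3-fold higher with DUXC (adjusted p = 7.47e-09). The DUX4 libraries were above the DUXC libraries (log2 0.91 ± 0.30, adjusted p = 0.00517), but without DUX4 library 1 the adjusted p was 0.0682. MMP11, which furin activates inside the cell, stood at 45.2 ± 1.15 CPM in the controls, fell to 34.3 ± 2.05 CPM with DUX4 (log2 -0.40) and was at 44.5 ± 2.45 CPM with DUXC (log2 -0.02 ± 0.045, adjusted p = 0.646). Scaled by library size alone, the DUXC value of MMP11 was 0.10 and passed (adjusted p = 0.0360).

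**Figure D2:**
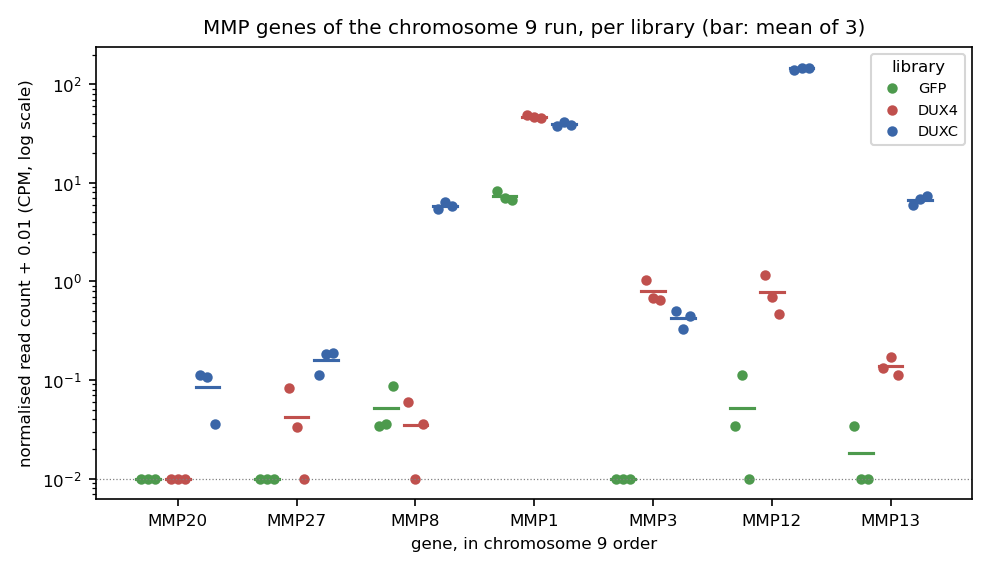
Normalised read count per library (y axis, CPM plus 0.01, log scale) of 7 MMP genes that lie side by side on chromosome 9 (x axis, in chromosome order), with GFP in green, DUX4 in red and DUXC in blue; bars are means of 3 libraries and points on the dotted line had no count. The 3 DUXC libraries of MMP12 lie between 140.0 and 147.7 CPM, and MMP7, which had no count in any library, is not drawn.

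These collagenase, stromelysin and elastase genes are neighbours in the genome. In the RefSeq annotation of Sscrofa11.1, MMP7, MMP20, MMP27, MMP8, MMP1, MMP3, MMP12 and MMP13 follow each other on chromosome 9 from 33214590 to 33616700. Of these 8, 5 could be tested: DUXC raised 5 of 5 and DUX4 raised 4 of 5, all of them at least 2-fold. MMP3, MMP8, MMP12 and MMP13 are among the 7 members that entered the test through the libraries in which they were high, so these counts were largely fixed by the filter and nothing is read from them. Over all tested genes, the shares raised at least 2-fold were 21.3% with DUXC and 10.5% with DUX4. The summed level of the 8 genes was 7.39 ± 0.781 CPM with GFP, 48.7 ± 2.53 CPM with DUX4 and 198 ± 6.57 CPM with DUXC. The makeup of this sum differed: MMP1 gave 98.2 to 99.1% of the reads in the GFP libraries and 95.3 to 97.3% in the DUX4 libraries, but 19.2 to 20.4% in the DUXC libraries, where MMP12 gave 72.8 to 73.8%. These shares are of reads, to which longer transcripts give more, and are a description.

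Of the 5 annotated genes on each side of this stretch, 9 were tested. DUX4 raised 2 and lowered 6 of the 9 (32.9% and 31.9% of all tested genes), with none raised at least 2-fold. DUXC raised 5 and lowered 4 (40.2% and 42.3% of all tested genes), with 2 raised at least 2-fold. One of these 2 was LOC110255426, which overlaps MMP13 and had 0, 3 and 53 counts with GFP, DUX4 and DUXC. It passed the filter only through the DUXC libraries. The other was BIRC3, an inhibitor of apoptosis, at 191 CPM in GFP, 167 in DUX4 and 408 in DUXC libraries (log2 1.10).

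**Figure D3:**
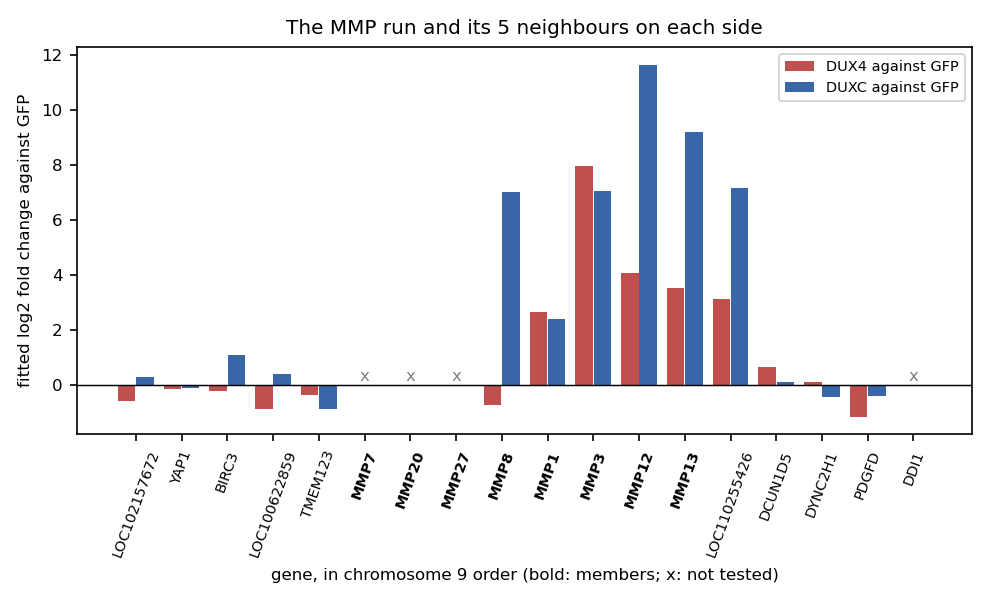
Fitted log2 fold change against GFP (y axis) of the 8 MMP genes in bold and the 5 genes on each side, in chromosome order (x axis), with DUX4 in red and DUXC in blue; x marks genes not tested. The 5 tested MMP genes reach from -0.72 to 11.65, MMP3 and LOC110255426 had no GFP count so that their bars are no measure of size, and BIRC3 with DUXC stands at 1.10.

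Markers of cells known for MMP8 and MMP12 moved with DUXC as well. The 10 macrophage markers summed to 16.0 to 19.2 CPM with GFP, 14.9 to 16.9 with DUX4 and 43.3 to 48.5 with DUXC. Of the 6 that were tested, DUXC raised 3 and lowered 2 (40.2% and 42.3% of all tested genes). ADGRE1, a macrophage surface receptor, rose from 0 counts to 23.6 ± 1.62 CPM (at least 937-fold), while CSF1R, the receptor for a macrophage growth factor, fell from 2.67 to 0.396 CPM. ADGRE1 passed the filter only through libraries of the factors. ADGRE1 and CD14, which rose from 6.48 to 15.0 CPM, gave most of the macrophage marker sum with DUXC. CD68 rose from 0.951 to 2.24 CPM, and ITGAM fell from 6.36 to 3.02 CPM. The leukocyte marker PTPRC had 0, 0 and 16 counts with GFP, DUX4 and DUXC, CD163 had 0, 1 and 14, MARCO had 0, 1 and 2, and MSR1 had 0, 22 and 3. The 5 neutrophil markers summed to 0.360 to 0.539, 0.295 to 0.390 and 13.3 to 14.4 CPM, with S100A8, S100A9 and CXCR2 raised by DUXC. S100A8, S100A9 and CXCR2 passed the filter only through the DUXC libraries, so their rise was a condition of their being tested. The granule enzyme MPO had 0, 2 and 5 counts, and ELANE, another granule enzyme, had 10, 18 and 12. The part of such cells in the MMP values was not tested.

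Most MMP reads came from MMP2 and MMP14, which changed by less than 2-fold. MMP2, the gelatinase that cuts denatured collagen and basement membrane, was at 900.1 ± 21.2 CPM in GFP, 606 ± 36.0 in DUX4 and 804 ± 22.9 in DUXC libraries (log2 -0.57 and -0.16). The smaller fall with DUXC depended on the scaling: by library size alone it was -0.04 with an adjusted p of 0.273. MMP14, the membrane protease that activates MMP2, rose with DUX4 from 519.5 ± 10.9 to 664 ± 12.8 CPM and fell with DUXC to 408 ± 3.83 CPM. MMP2 and MMP14 together gave 84.6 to 85.1% of all MMP reads with GFP and 72.3 to 73.1% with DUXC. MMP9, the gelatinase of leukocytes, was scarce, with 0.0917, 0.145 and 0.623 CPM in GFP, DUX4 and DUXC, and passed with DUXC (log2 2.71 ± 0.43) but not with DUX4 (adjusted p = 0.345).

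Among the other membrane-anchored MMPs, MMP15 and MMP25 changed at least 2-fold. MMP15 (chromosome 6, 19890867 to 19912941) had 4.06, 5.19 and 4.83 CPM in GFP, 3.59, 3.83 and 3.74 in DUX4 and 1.65, 1.62 and 1.45 in DUXC libraries. All DUXC libraries were below all others (log2 -1.57 ± 0.13, adjusted p = 4.39e-15), and the small fall with DUX4 (log2 -0.33 ± 0.11, adjusted p = 0.0086) did not pass without GFP library 2 (adjusted p = 0.0762). MMP25, a lipid-anchored protease of leukocytes (chromosome 3, 39129452 to 39143621), rose with DUX4. Its GFP libraries held 0.343, 0.411 and 0.796 CPM, its DUX4 libraries 2.02, 2.36 and 1.82 and its DUXC libraries 0.362, 0.294 and 0.382. The DUX4 libraries were above all others, with log2 2.01 ± 0.23 against GFP (adjusted p = 1.34e-10) and 2.58 ± 0.25 against DUXC (adjusted p = 4.40e-13). DUXC against GFP did not pass (adjusted p = 0.107), but did without GFP library 1 (log2 -0.81, adjusted p = 0.0312).

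MMP16 was at 70.8 CPM with GFP, fell to 48.1 with DUX4 and rose to 88.6 with DUXC. MMP24 was at 1.34, 1.22 and 1.17 CPM, and none of its 3 comparisons passed (log2 -0.14 ± 0.20, -0.20 ± 0.20 and 0.06 ± 0.20). MMP23B, a type II membrane protease that is released on processing (chromosome 6, 63801668 to 63804275), had 41.7, 46.0 and 44.8 CPM in GFP, 64.5, 63.8 and 58.1 in DUX4 and 25.4, 26.6 and 23.2 in DUXC libraries. The 3 groups did not overlap, with a rise of 0.49 ± 0.046 with DUX4 (adjusted p = 1.51e-12), a log2 change of -0.82 ± 0.05 with DUXC (adjusted p = 1.94e-18) and 1.31 ± 0.049 between them (adjusted p = 4.61e-26). MMP19 rose slightly with both (log2 0.16 and 0.24). DUX4 against DUXC did not pass for MMP19 (log2 -0.08 ± 0.040, adjusted p = 0.0671), but did by library size alone (log2 -0.18, adjusted p = 4.28e-05). MMP28, at 0.677 CPM with GFP, fell with both to 0.292 and 0.269 CPM.

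The 7 proteoglycan-cleaving ADAMTS genes, which include the aggrecanases, all passed with both factors but not in one direction. DUX4 raised 3 and lowered 4, and DUXC raised 4 and lowered 3. Of all tested genes, 64.8% passed with DUX4 and 82.5% with DUXC. ADAMTS4, an aggrecanase (chromosome 4, 89260354 to 89269238), had 18.5, 18.7 and 19.2 CPM in GFP, 41.1, 47.4 and 44.9 in DUX4 and 1339.6, 1452 and 1375 in DUXC libraries. The groups did not overlap, with means of 18.8 ± 0.370, 44.4 ± 3.15 and 1389 ± 57.7 CPM. The rise was 2.36-fold with DUX4 (log2 1.24 ± 0.045, adjusted p = 6.61e-24), 73.8-fold with DUXC (log2 6.21 ± 0.046, adjusted p = 7.12e-47), and DUXC exceeded DUX4 by 31.2-fold (adjusted p = 6.38e-45).

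ADAMTS1, which cuts versican and aggrecan (chromosome 13, 190277175 to 190285957), followed the same order. Its level was 35.8, 38.4 and 33.6 CPM in GFP, 108, 116 and 120.2 in DUX4 and 473, 527 and 507 in DUXC libraries, with no overlap. The log2 fold changes were 1.67 ± 0.051 (adjusted p = 7.88e-17) and 3.81 ± 0.051 (adjusted p = 2.28e-23), and -2.13 ± 0.046 for DUX4 against DUXC (adjusted p = 8.35e-20). ADAMTS1 overlaps LOC110256366, which had 0.683, 1.58 and 7.69 CPM and moved the same way. In all, ADAMTS4 and ADAMTS1 gave 8.43 to 8.99% of all ADAMTS reads in the GFP libraries, 25.4 to 27.2% in the DUX4 libraries and 83.9 to 85.5% in the DUXC libraries.

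ADAMTS5, the other main aggrecanase (chromosome 13, 190353019 to 190413110), did not follow ADAMTS4. It had 18.4, 15.6 and 17.1 CPM in GFP, 4.23, 4.64 and 4.31 in DUX4 and 14.8, 14.5 and 15.7 in DUXC libraries. The DUX4 libraries lay below all others (log2 -1.95 ± 0.079 against GFP, adjusted p = 1.24e-26; -1.77 ± 0.081 against DUXC, adjusted p = 4.49e-25). DUXC and GFP overlapped, and their small difference (log2 -0.18 ± 0.066, adjusted p = 0.00956) did not pass without GFP library 1 (adjusted p = 0.0941) or by library size alone (adjusted p = 0.403). ADAMTS5 lies next to ADAMTS1 on chromosome 13 with 2 annotated genes between them, and DUX4 raised ADAMTS1 while it lowered ADAMTS5.

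ADAMTS8 (chromosome 9, 57090313 to 57113077) and ADAMTS15 (chromosome 9, 57127527 to 57152550) are also direct neighbours. ADAMTS8 had 0.685, 0.514 and 0.565 CPM in GFP, 0.221, 0.275 and 0.128 in DUX4 and 7.41, 6.0002 and 6.78 in DUXC libraries. It fell with DUX4 (log2 -1.47 ± 0.33, adjusted p = 0.000113) and rose with DUXC (log2 3.51 ± 0.16, adjusted p = 8.06e-25), with no overlap in either case, and DUXC exceeded DUX4 by 31.4-fold (adjusted p = 1.34e-27). ADAMTS15 was lowered by both, from 0.723 CPM to 0.0833 with DUX4 and 0.329 with DUXC (log2 -3.11 ± 0.43 and -1.13 ± 0.32). DUX4 library 3 held 7 of its 10 DUX4 counts, and without it the log2 fold change was -4.23, and DUX4 against DUXC went from -1.97 to -3.09.

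ADAMTS20 (chromosome 5, 74502098 to 74672703) and ADAMTS9, a closely related pair, moved in opposite directions. ADAMTS20 had 11.3, 11.5 and 11.2 CPM in GFP, 20.9, 19.5 and 20.7 in DUX4 and 5.63, 6.02 and 5.91 in DUXC libraries. Its groups did not overlap, with log2 0.85 ± 0.063 with DUX4 (adjusted p = 1.33e-16), -0.95 ± 0.076 with DUXC (adjusted p = 6.94e-16) and 1.80 ± 0.07 between them (adjusted p = 6.66e-28). ADAMTS9 fell from 22.9 ± 1.25 to 17.9 ± 1.45 CPM with DUX4 and rose to 33.0 ± 1.57 with DUXC.

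**Figure D4:**
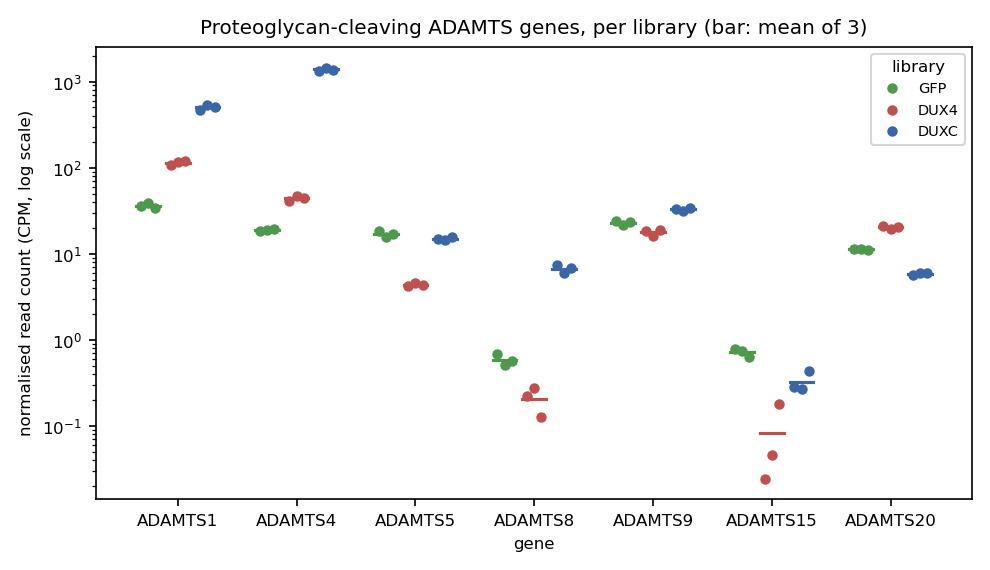
Normalised read count per library (y axis, CPM, log scale) of the 7 proteoglycan-cleaving ADAMTS genes (x axis), with GFP in green, DUX4 in red and DUXC in blue; bars are means of 3 libraries. ADAMTS4 has means of 18.8 CPM with GFP and 1389 with DUXC, whereas DUX4 is the lowest group for ADAMTS5, ADAMTS8, ADAMTS9 and ADAMTS15.

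The expression of substrates of these enzymes moved too. Versican, VCAN, was at 441 ± 10.8 CPM with GFP and 449.5 ± 13.4 with DUX4 (adjusted p = 0.449) and fell to 139 ± 7.23 with DUXC. Aggrecan, ACAN, had 4 counts with GFP and 5 with DUX4 and rose with DUXC to 1.72 ± 0.0244 CPM (log2 5.55 ± 0.40). ACAN is also 1 of 4 cartilage cell markers, which summed to 24.4 to 26.4, 44.4 to 53.8 and 12.9 to 14.8 CPM with GFP, DUX4 and DUXC. SOX9, the regulator of cartilage cells, rose with DUX4 and fell with DUXC (log2 0.97 and -1.28), while COL2A1 and COL9A1 rose with DUXC. ACAN, COL2A1 and COL9A1 passed the filter only through the DUXC libraries, so their rise was a condition of their being tested. The part of cartilage cells in the ADAMTS values was not tested.

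The procollagen N-proteinases, which remove the amino propeptide of procollagens, split in the same way under both factors: ADAMTS3 and ADAMTS14 rose and ADAMTS2 fell. ADAMTS2 (chromosome 2, 79182901 to 79406879) had 184, 179.6 and 189.7 CPM in GFP, 109, 114 and 116 in DUX4 and 80.7, 79.5 and 80.4 in DUXC libraries. Its groups did not overlap (log2 -0.71 ± 0.033, adjusted p = 2.17e-24, with DUX4 and -1.20 ± 0.033, adjusted p = 7.59e-34, with DUXC), and DUXC was below DUX4 (log2 0.49 ± 0.034, adjusted p = 2.85e-18).

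ADAMTS3, which also processes the lymphatic growth factor VEGFC (chromosome 8, 68675067 to 68948537), had 6.19, 5.42 and 6.93 CPM in GFP, 21.4, 21.7 and 21.1 in DUX4 and 19.99, 20.2 and 21.7 in DUXC libraries. All libraries of the factors were above all controls (log2 1.79 ± 0.071, adjusted p = 4.25e-27; 1.74 ± 0.071, adjusted p = 7.21e-27). The factors overlapped, with a log2 difference of 0.05 ± 0.059 (adjusted p = 0.411). ADAMTS14 (chromosome 14, 73565158 to 73657257) also rose with both, with 0.343, 0.205 and 0.205 CPM in GFP, 1.35, 1.68 and 1.23 in DUX4 and 1.27, 1.42 and 1.25 in DUXC libraries. Its log2 fold changes were 2.48 ± 0.27 (adjusted p = 3.25e-11) and 2.36 ± 0.28 (adjusted p = 1.10e-10), with overlap between the factors (log2 0.12 ± 0.19, adjusted p = 0.572). The spans of ADAMTS2 and ADAMTS14 each overlap another annotated gene.

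Of the enzymes that cut cartilage oligomeric matrix protein, ADAMTS7 was at 31.4 CPM with GFP, fell to 24.3 with DUX4 and was at 33.9 with DUXC. The small rise with DUXC (log2 0.11 ± 0.045, adjusted p = 0.0233) did not pass without GFP library 1, GFP library 3, DUXC library 1 or DUXC library 2 (adjusted p = 0.0909, 0.0820, 0.0629 and 0.0648). ADAMTS12 had 7, 5 and 86 counts with GFP, DUX4 and DUXC. It rose with DUXC (log2 3.55 ± 0.45, and 4.15 without GFP library 3) and did not pass with DUX4 (adjusted p = 0.615). ADAMTS13, which cuts von Willebrand factor, was at 0.853, 0.785 and 0.497 CPM. Its fall with DUXC (adjusted p = 0.00769) did not pass without GFP library 3 (adjusted p = 0.0533), and with DUX4 it did not pass (adjusted p = 0.702).

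The 4 other ADAMTS proteases that were tested were all lowered by DUXC, which lowered 42.3% of all tested genes. ADAMTS16, a protease related to ADAMTS18 (chromosome 16, 76326718 to 76491050), fell most, from 6.49, 7.19 and 7.24 CPM with GFP to 3.10, 3.07 and 2.97 with DUX4 and 0.646, 0.343 and 0.510 with DUXC. The groups formed 3 steps without overlap: log2 -1.19 ± 0.11 with DUX4 (adjusted p = 1.46e-13), -3.80 ± 0.16 with DUXC (adjusted p = 9.74e-27) and 2.61 ± 0.18 between the factors (adjusted p = 6.33e-18). In fold terms the fall was 2.28-fold with DUX4 and 13.9-fold with DUXC.

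ADAMTS10 and ADAMTS17 act in the assembly of fibrillin microfibrils and are mutated in Weill-Marchesani syndrome. ADAMTS10 (chromosome 2, 70734234 to 70751205) had 129, 128 and 120.1 CPM in GFP, 58.7, 59.9 and 61.6 in DUX4 and 53.0, 52.9 and 53.5 in DUXC libraries. It fell with both (log2 -1.07 ± 0.035, adjusted p = 2.81e-30; -1.24 ± 0.036, adjusted p = 3.01e-33). The difference between the factors (log2 0.18 ± 0.037, adjusted p = 3.16e-05) did not pass by library size alone (adjusted p = 0.0622), and its span overlaps LOC106507295. ADAMTS17 (chromosome 1, 138619701 to 139015681) had 48.3, 46.4 and 48.9 CPM in GFP, 56.0, 55.6 and 54.9 in DUX4 and 19.7, 19.2 and 19.4 in DUXC libraries. It rose slightly with DUX4 (log2 0.21 ± 0.04, adjusted p = 6.49e-06) and fell with DUXC (log2 -1.30 ± 0.045, adjusted p = 4.76e-30), without overlap, and differed between the factors by 1.52 ± 0.044 (adjusted p = 4.22e-33). ADAMTS6, of the same subgroup, was at 124 and 117 CPM with GFP and DUX4 (adjusted p = 0.0828, and 0.00442 without GFP library 3 or 0.0322 without DUX4 library 1) and fell to 73.7 with DUXC.

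The ADAMTS-like genes, whose products bind microfibrils but do not cut, also split. Of 4 tested, DUX4 raised 2 and lowered 2 (32.9% and 31.9% of all tested genes), and DUXC raised 1 and lowered 3 (40.2% and 42.3%). ADAMTSL4, which binds fibrillin and is mutated in inherited lens dislocation (chromosome 4, 98577813 to 98589255), had 64.4, 64.7 and 68.6 CPM in GFP, 159.8, 168 and 173 in DUX4 and 24.2, 25.6 and 23.7 in DUXC libraries. DUX4 raised it and DUXC lowered it, with no overlap, by log2 1.34 ± 0.036 (adjusted p = 5.06e-34) and -1.43 ± 0.042 (adjusted p = 6.56e-33). The difference between the factors was 6.79-fold (log2 2.76 ± 0.04, adjusted p = 1.13e-45), the largest in favour of DUX4 among the 41 tested members.

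ADAMTSL1, also called punctin (chromosome 1, 203936654 to 204944236), rose in 2 steps, from 38.01, 39.2 and 39.0 CPM with GFP to 59.0, 60.8 and 65.5 with DUX4 and 109, 101 and 107 with DUXC. The groups did not overlap (log2 0.67 ± 0.041, adjusted p = 6.84e-20; 1.45 ± 0.039, adjusted p = 2.78e-34; -0.77 ± 0.037 for DUX4 against DUXC, adjusted p = 4.72e-24), and its span overlaps 2 other annotated genes. ADAMTSL3 (chromosome 7, 51006356 to 51363855) fell in 2 steps, from 79.7, 83.2 and 80.9 CPM to 62.8, 62.6 and 65.5 with DUX4 and 39.1, 37.2 and 40.3 with DUXC. Its log2 fold changes were -0.35 ± 0.036 (adjusted p = 5.57e-12) and -1.06 ± 0.038 (adjusted p = 2.96e-29), and 0.71 ± 0.039 between the factors (adjusted p = 5.44e-22).

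ADAMTSL5 (chromosome 2, 76966155 to 76975555) had the same order, with 7.49, 6.75 and 7.14 CPM in GFP, 5.48, 5.74 and 5.18 in DUX4 and 3.07, 2.33 and 2.29 in DUXC libraries and no overlap. It fell with both (log2 -0.38 ± 0.096, adjusted p = 0.000532; -1.48 ± 0.11, adjusted p = 7.60e-17), and more with DUXC (log2 1.10 ± 0.11, adjusted p = 4.56e-12). FBN1, the main fibrillin, to which several of these proteins bind, fell with both from 5671 ± 70.01 CPM to 1859 ± 137 and 1923 ± 99.2 CPM, while FBN2, the fibrillin of embryonic tissue, rose from 0.430 to 2.54 and 7.06 CPM.

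No inhibitor changed 2-fold against GFP. TIMP1 was at 254, 233 and 263 CPM in GFP, 199, 228 and 244 in DUX4 and 134, 150.4 and 131 in DUXC libraries. It fell with DUXC (log2 -0.85 ± 0.096, adjusted p = 0.000142), where the groups did not overlap, and did not pass with DUX4 (log2 -0.16 ± 0.095, adjusted p = 0.186), where they did, although limma-voom gave an adjusted p of 0.0117. TIMP2, which also takes part in the activation of MMP2 by MMP14, fell from 406 ± 5.08 to 345 ± 12.3 CPM with DUX4 and 226 ± 6.37 with DUXC. TIMP3, which binds to the matrix and inhibits ADAMTS4 and ADAMTS5 besides MMPs, fell from 246 ± 8.27 to 126 ± 4.71 CPM with DUX4 and less, to 207 ± 3.17, with DUXC. Each of the 4 TIMP genes overlaps another annotated gene, in 3 of them a synapsin gene in whose introns TIMP genes are known to lie.

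TIMP2 was lower with DUXC than with DUX4, and TIMP3 was lower with DUX4 (log2 0.61 ± 0.031 and -0.71 ± 0.033 for DUX4 against DUXC). TIMP4 was scarce, at 0.783, 0.539 and 0.539 CPM in GFP, 1.03, 0.872 and 1.05 in DUX4 and 0.207, 0.465 and 0.586 in DUXC libraries. Its rise with DUX4 (log2 0.66 ± 0.26, adjusted p = 0.0242) was lost without any one of DUX4 libraries 1 and 3 and GFP libraries 2 and 3 (adjusted p = 0.0563 to 0.0873). DUXC against GFP did not pass (adjusted p = 0.089), but did without DUXC library 3 (log2 -0.87, adjusted p = 0.0257).

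Summed over the genes of a family, the largest shift was in ADAMTS reads with DUXC. It was mainly a shift of ADAMTS4 and ADAMTS1, which gave 8.43 to 8.99% of this sum with GFP and 83.9 to 85.5% with DUXC. The 19 ADAMTS genes summed to 642, 636 and 627 CPM in GFP, 588, 599.6 and 609 in DUX4 and 2162, 2316 and 2232 in DUXC libraries. The 20 MMP genes gave 1674 ± 29.4, 1559 ± 43.5 and 1666 ± 28.0 CPM, and every DUX4 library was below every GFP and DUXC library. The 4 TIMP genes gave 902 ± 13.0 CPM in GFP, 696 ± 31.8 in DUX4 and 572 ± 14.6 in DUXC libraries, so that all DUX4 libraries were below the controls and all DUXC libraries below the DUX4 libraries. The ratio of MMP and ADAMTS reads to TIMP reads was 2.54, 2.59 and 2.55 in the GFP libraries, 3.18, 3.04 and 3.08 in the DUX4 libraries and 6.66, 6.86 and 6.96 in the DUXC libraries. The DUXC ratio includes the reads of ADAMTS4 and ADAMTS1. These sums are of reads, not of molecules or of active enzyme, and are given without a test. Summed, the 8 fibroblast markers fell as the TIMP sum did. They gave 49880.4 to 53007 CPM with GFP, 29007 to 32739.9 with DUX4 and 25619.5 to 25638 with DUXC. Most of these reads came from COL1A1, COL1A2 and COL3A1, at 16752, 19252 and 12268.5 CPM with GFP. DUX4 lowered 8 of 8, and DUXC lowered 6 and raised 2, PDGFRA and FBLN1 (log2 1.31 and 0.37). Of all tested genes, DUX4 lowered 31.9%, and DUXC lowered 42.3% and raised 40.2%. The part of the fibroblast marker shift in the TIMP values was not tested.

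**Figure D5:**
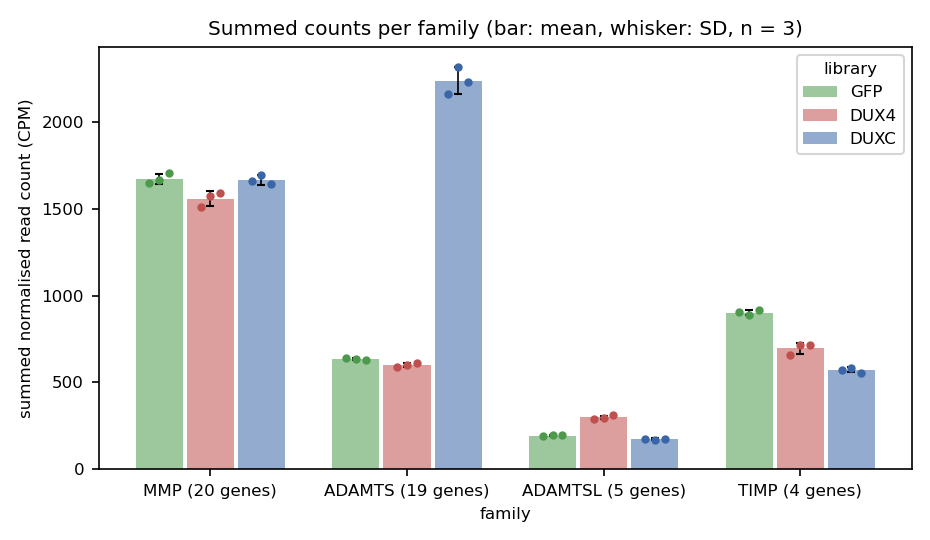
Summed normalised read count (y axis, CPM) of the MMP, ADAMTS, ADAMTSL and TIMP genes (x axis), with GFP in green, DUX4 in red and DUXC in blue; bars are means, whiskers SD and points the 3 libraries. The ADAMTS sum with DUXC, 2237 CPM, of which ADAMTS4 and ADAMTS1 gave 83.9 to 85.5%, stands above that of the other groups. The TIMP sum is lower with both factors than with GFP.

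A fixed list of 68 partner genes of these proteases, of which 61 were tested, also moved in both directions. DUX4 raised 24 and lowered 25 of the 61, and DUXC raised 21 and lowered 35. Of all tested genes, DUX4 raised 32.9% and lowered 31.9%, and DUXC raised 40.2% and lowered 42.3%. These shares also stand beside the counts of the single partner lists that follow. Some partners, ACAN, COL2A1, TNF and TLL1 among them, were under the filter level with GFP. They entered the test through libraries of a factor in which they were high. The raised counts of the partner lists were thus in part fixed by the filter, and nothing is read from them. Among 10 tested genes of the plasminogen system and of the convertases that activate proenzymes, DUX4 raised 7 and lowered 2, and DUXC raised 3 and lowered 6. SERPINB2, an inhibitor of the urokinase-type plasminogen activator, rose from 0.363 ± 0.0714 CPM to 7.52 ± 1.00 and 30.9 ± 3.09. FURIN, the convertase that activates MMP14 and many ADAMTS proenzymes, moved in opposite directions, from 123 ± 2.99 CPM to 193 ± 11.06 with DUX4 and 68.7 ± 2.38 with DUXC.

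Of 11 tested inducers of metalloproteinase genes, DUX4 raised 8 and lowered 1, and DUXC raised 6 and lowered 5. The cytokine IL1A rose from 11.8 ± 0.650 CPM to 95.3 ± 4.44 with DUX4 and 127 ± 5.46 with DUXC. IL6 rose from 12.9 ± 0.748 CPM to 26.9 ± 1.58 and 156 ± 9.27. TNF had 2 counts with GFP and 7 with DUX4 (adjusted p = 0.163) but 11.4 ± 0.792 CPM with DUXC, which is a ratio to GFP of 675 (95% interval 186 to 5579). The AP-1 subunit FOSL1 rose with DUX4 from 19.2 ± 0.809 to 91.5 ± 4.10 CPM and was at 17.2 ± 0.812 CPM with DUXC, while FOS and JUN rose with both (FOS log2 1.91 and 1.77, JUN log2 1.77 and 1.25).

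Among 9 tested inhibitors and helpers outside the TIMP family, each factor raised 2 and lowered 6: PCOLCE2 and SPOCK3 rose with DUX4, and SPOCK2 and PAPLN with DUXC. PCOLCE2, which enhances procollagen processing, rose with DUX4 and fell with DUXC (log2 0.66 and -0.73), SPOCK2 did the reverse (log2 -0.34 and 1.56), and the inhibitor TFPI2 fell with both (log2 -0.60 and -1.16). In the related astacin family, which trims procollagen at the other end, TLL1 rose from 0.143 ± 0.0357 CPM to 2.63 ± 0.220 and 18.2 ± 1.44, TLL2 rose from 4.57 ± 0.363 to 6.66 ± 0.888 and 162 ± 2.18, and BMP1 fell slightly with DUX4 and to 211 ± 4.84 from 362 ± 11.2 CPM with DUXC. Of 4 astacins tested, DUX4 raised 2 and lowered 1 and DUXC raised 3 and lowered 1.

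Of 11 membrane proteases of the ADAM family, each factor raised 3 and lowered 5. ADAM17, which sheds TNF from the cell surface, rose with DUXC from 67.9 ± 2.16 to 184 ± 2.09 CPM and was at 70.9 ± 1.57 with DUX4 (adjusted p = 0.113). ADAM8 rose with DUX4 from 11.2 ± 0.751 to 33.6 ± 3.33 CPM and fell with DUXC to 4.34 ± 0.230. Of 16 tested substrates, DUX4 raised 2 and lowered 10, and DUXC raised 4 and lowered 12. Among these 4, ACAN and COL2A1 passed the filter only through the DUXC libraries, so their rise was a condition of their being tested. COL4A1, a basement membrane collagen, fell from 794 ± 9.41 CPM to 82.8 ± 4.18 with DUX4 and 199 ± 4.01 with DUXC, and ELN, the elastin that MMP12 cuts, fell from 19.6 ± 0.691 to 1.53 ± 0.116 and 3.16 ± 0.223 CPM.

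The 7 members too scarce to be tested had few counts. MMP7, the matrilysin of epithelia, had none in any of the 9 libraries. MMP20, the protease of tooth enamel, had 0, 0 and 9 counts with GFP, DUX4 and DUXC, and its neighbour MMP27 had 0, 4 and 18. ADAMTS18 had 0, 3 and 38, which with DUXC is at least 12.7-fold higher than with GFP, and ADAMTS19 had 0, 6 and 16, at least 5.33-fold. ADAMTSL2 had 5, 14 and 17 counts and MMP17 had 19, 9 and 23. No change of these 7 was tested, and with 3 counts as the floor a level under about 0.0253 CPM over a group could not be detected.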

How the data were processed

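The authors deposited 1 table of unnormalised read counts by gene symbol, for 9 libraries made with a stranded mRNA kit per the labels. Per the submitters' processing notes, the authors used CASAVA 1.9, Trim Galore, featureCounts and genome build Sscrofa11.1. The column headers name Subread. Neither the strand setting nor the annotation release is given in the sources used here, so counts of the 18 members that overlap another gene may hold that gene's reads.

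Counts were scaled with TMM factors (0.960 to 1.06), filtered with filterByExpr by group (15956 of 27339 genes left, 11383 removed) and entered 1 fit with group as the only term, in edgeR 4.0.16 under R 4.3.3 (robust quasi-likelihood, two-sided F test, Benjamini-Hochberg, threshold 0.05). The contrasts set each factor against GFP and DUX4 against DUXC. CPM uses the TMM-adjusted library size. The SE is the log2 fold change divided by the root of F. The common dispersion of 0.00114 equals a 3.38% coefficient of variation among replicates. Exact permutation of 3 against 3 libraries has 0.1 as its smallest p, so it was not used. For genes with 0 counts in a group, folds are bounds against 3 counts over the group (0.0253 CPM with GFP), and for 1 to 3 counts they are ratios with exact 95% intervals. Intervals and floors cover counting error only. The pipeline was tested on simulated data.

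The members and gene lists were chosen with earlier results of these data known. Members are described in full where they reached 1 CPM in their highest group and changed at least 2-fold with an adjusted p under 0.05 in a comparison (22 of 41 tested). Others are given by group means or counts. From the partner and marker lists, up to 4 genes by smallest p in each comparison are named, besides markers that define a cell type. One listed partner gene is not reported here. BIRC3, PRDM10, LOC110255426, LOC110256366, ST14, LOC110255461, LOC106504929, FBN1, FBN2 and PAPLN were named after their values were seen. Positions come from RefSeq for Sscrofa11.1, in which all 48 members matched. No transcript lengths were used, so genes are set against each other only as shares of reads, to which longer transcripts give more. Planned searches of promoter and protein sequences were not run. The alternatives were other scalings (DESeq2 1.42.0 size factors, library size), other filters, DESeq2, limma-voom (limma 3.58.1), a replicate block, fits of 2 groups, leaving out each library and leaving out members that overlap another gene.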

Additional observations from a re-analysis of the deposited data

How the results depend on the processing

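Of 123 values (41 members in 3 comparisons), 107 passed, 98 of these passed in all alternatives in which the gene could be fitted, 9 lost the call in at least 1 and none of the 107 changed direction. The 9 are ADAMTS5, MMP2, ADAMTS7 and ADAMTS13 for DUXC against GFP, MMP15 and TIMP4 for DUX4 against GFP, and ADAMTS10, ADAMTS13 and MMP3 for DUX4 against DUXC. Of the 16 values that did not pass, 6 passed in at least 1 alternative. Over the fits that left out 1 library, DUX4 raised 16 to 17 and lowered 16 to 18 members, DUXC raised 16 to 18 and lowered 19 to 21, and 17 to 19 were higher with DUX4 and 17 to 19 with DUXC. Counted over the 25 tested members that overlap no other gene, DUX4 raised 12 and lowered 9, DUXC raised 10 and lowered 12, and 12 were higher and 10 lower with DUX4 than with DUXC, since fewer genes were counted. Scaling by library size alone moved the median log2 fold change of all tested genes for DUXC against GFP from -0.03 to 0.09, and for DUX4 against DUXC from -0.01 to -0.11.

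Values that did not pass changed sign as follows, and the cause was not tested. MMP11 for DUXC against GFP was 0.0552 with DESeq2 size factors, 0.10 by library size, 0.0360 with a filter of at least 1 CPM, 0.0553 in DESeq2 and 0.0295 with the 2 groups alone. For DUX4 against DUXC, ADAMTS3 was -0.0485 by library size, -0.00076 with that filter and -5.3e-05 in DESeq2, and MMP24 was -0.0423 by library size. Over the fits that left out 1 library, MMP11 for DUXC against GFP ranged from -0.0669 to 0.0189. For DUX4 against GFP, ADAMTS13 ranged from -0.251 to 0.0400, ADAMTS12 from -0.842 to 0.10 and MMP24 from -0.301 to 0.0314. For DUX4 against DUXC, MMP24 ranged from -0.0858 to 0.175, ADAMTS14 from -0.0124 to 0.218 and MMP28 from -0.0344 to 0.289.

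Same-numbered libraries of different groups had residual correlations of -0.0839 to 0.0998. Differently numbered libraries were not set beside them, so these values cannot decide whether same-numbered libraries share a culture or a batch. With the replicate block DUX4 raised 17 and lowered 17 members, DUXC raised 17 and lowered 20, and 19 were higher and 17 lower with DUX4 than with DUXC, as without it. Depth limits MMP3, MMP8, MMP12, MMP13 and ADAMTS12, which had 0 to 7 counts over the GFP libraries, and leaves their fold changes imprecise.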

Other observations

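The 5 annotated genes on each side of ADAMTS8 and ADAMTS15 on chromosome 9 included 7 that were tested. DUX4 raised 2 and lowered 2 of them, and DUXC raised 5 and lowered 2. ST14, LOC110255461 and LOC106504929, all raised by DUXC, had 2, 0 and 0 counts with GFP. They passed the filter only through libraries of the factors. Over all tested genes, DUX4 raised 32.9% and lowered 31.9%, and DUXC raised 40.2% and lowered 42.3%. PRDM10, a zinc finger transcription factor, had mean levels of 6.13 CPM for GFP, 7.10 for DUX4 and 39.4 for DUXC. Around and between ADAMTS1 and ADAMTS5 on chromosome 13, 7 other genes were tested. DUX4 raised 3 and lowered 1 of these, and DUXC raised 5 and lowered 1.

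Marker lists of further cell types gave the following summed levels for GFP, DUX4 and DUXC libraries in that order. Smooth muscle and pericyte markers summed to 2581 to 2766, 835 to 916 and 615 to 643 CPM, with 4 of 5 tested markers lowered by each factor. Of all tested genes, DUX4 lowered 31.9% and DUXC 42.3%. Osteoclast markers summed to 431 to 444, 409.6 to 417 and 242 to 245 CPM, nearly all of it from CTSK, at 438, 414 and 242 CPM. ACP5 was at 0.202, 0.134 and 0.470 CPM, DCSTAMP had 0, 0 and 14 counts and OCSTAMP had 0, 0 and 13. Endothelial markers summed to 5.70 to 6.85, 9.79 to 10.6 and 27.2 to 29.9 CPM, with 3 of 3 tested markers raised by DUXC. Of these, KDR and TEK passed the filter only through libraries of the factors, so that nothing is read from the count. Epithelial markers summed to 0.744 to 0.847, 0.308 to 0.344 and 1.84 to 2.40 CPM. Myoblast and muscle markers summed to 13.7 to 14.7, 18.4 to 21.2 and 7.83 to 8.87 CPM, but did not move together. ITGA7 rose with DUX4 and fell with DUXC (log2 1.36 and -0.50), and DES fell with both (log2 -1.76 and -2.74). MYF5 rose with both (log2 1.61 and 1.33). PAX7 rose with DUXC (log2 1.47) and did not pass with DUX4 (adjusted p = 0.153). The part of all these cell types in the metalloproteinase values was not tested.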
